A study of Arabidopsis thaliana with 6 samples.

Results

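Cytosine methylation in Arabidopsis is written and kept by several enzymes and erased by others. MET1 copies CG methylation after DNA replication, CMT3 and CMT2 methylate non-CG sites guided by H3K9 methylation, DRM2 acts at the end of the RNA-directed DNA methylation (RdDM) pathway, and the chromatin remodeller DDM1 gives methyltransferases access to heterochromatin. KYP places the H3K9 methylation that CMT3 and CMT2 read, while the DNA glycosylases ROS1, DME, DML2 and DML3 cut out 5-methylcytosine.

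The transcripts of these 10 genes, chosen by their identifiers, were examined among the 32548 genes of an RNA-seq table. Earlier results of these data were known when the 10 genes and all gene lists used below were chosen. The table covers 20-day-old Arabidopsis seedlings of 3 genotypes in the Col-0 background with 2 libraries each, namely hdip1/2/3, hda19 and the wild type. The hdip1/2/3 plants carry CRISPR-Cas9 mutations in HDIP1, HDIP2 and HDIP3, which encode subunits of the HDA19 histone deacetylase complex, and the hda19 plants carry a T-DNA insertion in the histone deacetylase gene HDA19. Seedlings grown on plates and soil were used, the labels name no separate lines within a mutant, and the genotypes received no treatment. All 10 genes passed the filter on low values, which kept the 23685 genes that averaged 1 or more in some genotype. Values are adjusted read counts, that is, reads per gene that the authors brought to a common effective library size without dividing by gene length. A log2 fold change is on the log2(value + 1) scale, and a gene is said to have changed where its Benjamini-Hochberg adjusted P value from limma-trend was below 0.05.

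Recovered depth was between 43906641 and 48407739 reads per library. HDA19 had adjusted counts of 2832 and 4561 in hda19, against 4298 and 4416 in the wild type. HDIP1, HDIP2 and HDIP3 had log2 fold changes of 0.25, 0.37 and 0.08 in hdip1/2/3 and 0.77, 0.96 and 0.64 in hda19, none past the test. Once the trend with exonic length described next was removed, 3 of 3 were called higher in each mutant. Of all 23685 tested genes, 2661 in hdip1/2/3 and 1951 in hda19 were then called in either direction. A gene-level count does not locate an insertion or a small edit, so these values do not check the genotypes. The leaf markers RBCS1A, LHCB2.1, CA1 and RCA together held between 1349340 and 2067710 adjusted counts per library, whereas 5 root markers together held between 11.4 and 31.4, and the root-hair gene LRX1 was at or near 0 in every library. The libraries also differed by exonic length, the summed length of a gene's exons, and this bears on every result below. Among the quintile of tested genes with the longest exons (2472 nt or more), the median deviation from the gene mean was -0.13 and -0.40 on the log2 scale in the libraries of hdip1/2/3, 0.06 and 0.21 in those of hda19, and 0.29 and 0.00 in those of the wild type. Of the 10 genes, 9 belong to this quintile, the exception being DRM2, and 6 are longer than 4000 nt, against a median of 1659 nt for all tested genes.

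Upstream sequences of 3 of the genes are shown because MET1 and CMT3 were the members that passed the adjusted test and ROS1 was the only member with a match to the E2F letters. E2F proteins are transcription factors of S phase, when maintenance methylation takes place. The letters searched on both strands were TTTCCCGC, TTTGGCGC, TTTCGCGC and TTTGCCGC, and the windows are the 250 bases before the annotated start in TAIR10.1 (RefSeq), written 5′ to 3′ on the strand of the gene with a match in capitals.
MET1, chr5:19931864-19932113, plus strand: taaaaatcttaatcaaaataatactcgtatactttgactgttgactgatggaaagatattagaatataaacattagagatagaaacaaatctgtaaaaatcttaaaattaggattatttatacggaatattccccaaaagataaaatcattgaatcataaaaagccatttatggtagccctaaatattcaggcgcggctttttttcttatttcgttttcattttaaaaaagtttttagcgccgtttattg
CMT3, chr1:26253688-26253937, minus strand: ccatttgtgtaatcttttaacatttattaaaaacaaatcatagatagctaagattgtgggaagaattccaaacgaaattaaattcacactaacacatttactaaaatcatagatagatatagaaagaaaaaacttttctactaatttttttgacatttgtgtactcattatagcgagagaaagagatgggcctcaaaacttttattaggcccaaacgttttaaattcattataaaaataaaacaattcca
ROS1, chr2:15314808-15315057, minus strand: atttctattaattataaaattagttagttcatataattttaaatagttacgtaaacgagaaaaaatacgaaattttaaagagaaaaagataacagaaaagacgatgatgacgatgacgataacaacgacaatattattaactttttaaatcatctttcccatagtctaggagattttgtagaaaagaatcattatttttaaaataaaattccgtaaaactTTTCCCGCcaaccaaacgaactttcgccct

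The letters TTTCCCGC in the ROS1 window end 23 bases before the start of the gene. They made ROS1 the 1 match among the 10 genes, against 337 of 23684 windows of all tested genes (1.42%) and 7 of 12 windows (58.3%) of the DNA replication genes used below as markers of dividing cells.

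Of the 4 methyltransferase transcripts, MET1 and CMT3 fell in hdip1/2/3, CMT2 had as low a mean ratio to the wild type as MET1 but did not pass the test, and the DRM2 libraries overlapped those of the wild type. MET1 (AT5G49160, chromosome 5, 19932114 to 19938470, 5062 nt of exons) had adjusted counts of 1141 and 945 in hdip1/2/3, 1387 and 1718 in hda19, and 2151 and 1864 in the wild type. Both libraries of each mutant lay below both wild-type libraries, and those of hdip1/2/3 also lay below those of hda19. MET1 fell in hdip1/2/3 by 0.95 on the log2 scale, a 0.519-fold level (SE 0.16, limma-trend adjusted P = 0.0226). In hda19 its log2 fold change was -0.38 (SE 0.16, adjusted P = 0.286, 95% interval -0.75 to 0.00).

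CMT3 (AT1G69770, chromosome 1, 26248118 to 26253687, 3066 nt) had adjusted counts of 910 and 950 in hdip1/2/3, 1281 and 1256 in hda19, and 1542 and 1301 in the wild type. The 3 genotypes did not overlap, although the lower wild-type library was close to both hda19 libraries. CMT3 fell in hdip1/2/3 by 0.61 on the log2 scale, a 0.657-fold level (SE 0.13, limma-trend adjusted P = 0.0411), and its log2 fold change in hda19 was -0.16 (SE 0.13, adjusted P = 0.63). MET1 and CMT3 were the only 2 of the 10 genes called lower in hdip1/2/3, whereas 2.82% of all tested genes were called lower and 7.17% were called in either direction.

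Neither call held under every setting. Between hdip1/2/3 and the wild type no gene of 23685 passed the adjusted test when any 1 of the 6 libraries was left out, and the adjusted P value of MET1 then lay between 0.118 and 0.255, and that of CMT3 between 0.0806 and 0.245. The log2 fold changes in these fits lay between -1.08 and -0.81 for MET1 and between -0.73 and -0.48 for CMT3. With the trend on exonic length removed from each library, the log2 fold change in hdip1/2/3 was -0.19 for MET1 (adjusted P = 0.387) and -0.25 for CMT3 (adjusted P = 0.246). Over all alternatives the adjusted P value ranged between 0.0117 and 0.387 for MET1 and between 0.0283 and 0.246 for CMT3. The part of length in either result was not tested beyond this.

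CMT2 (AT4G19020, chromosome 4, 10414428 to 10421265, 4315 nt), the chromomethylase of long heterochromatic transposons, had adjusted counts of 731 and 634 in hdip1/2/3, 1103 and 1388 in hda19, and 1660 and 1040 in the wild type. The hdip1/2/3 libraries were the lowest of the 6, while the hda19 libraries lay between the 2 wild-type libraries. The log2 fold change of CMT2 in hdip1/2/3 equalled that of MET1 to 2 decimals, at -0.95, but with a wider error (SE 0.23, limma-trend adjusted P = 0.0516). CMT2 passed the test under 3 alternatives, with a filter at a mean of 10, a replicate block or limma-voom, and its adjusted P value ranged between 0.0304 and 0.369 over all of them. In hda19 it was -0.09 (SE 0.23, 95% interval -0.63 to 0.45).

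DRM2 (AT5G14620, chromosome 5, 4715105 to 4718704), the de novo methyltransferase and the shortest of the genes at 2331 nt, had adjusted counts of 586 and 529 in hdip1/2/3, 581 and 544 in hda19, and 558 and 588 in the wild type. All 3 genotypes overlapped. The log2 fold change was -0.04 in hdip1/2/3 (SE 0.15, 95% interval -0.38 to 0.30) and -0.03 in hda19 (95% interval -0.37 to 0.32).

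Of the factors that act with the methyltransferases, DDM1 (AT5G66750, chromosome 5, 26648897 to 26653191, 2770 nt) had adjusted counts of 548 and 400 in hdip1/2/3, 714 and 629 in hda19, and 744 and 666 in the wild type. The hdip1/2/3 libraries were below the other 4, which overlapped each other. Its log2 fold change in hdip1/2/3 was -0.59 (SE 0.19, adjusted P = 0.0895), and in hda19 it was -0.07 (SE 0.19). KYP (AT5G13960, chromosome 5, 4501362 to 4506250, 2554 nt) had adjusted counts of 391 and 276 in hdip1/2/3, 427 and 423 in hda19, and 468 and 359 in the wild type. The hdip1/2/3 and wild-type libraries overlapped, and the log2 fold change was -0.32 in hdip1/2/3 (SE 0.22, adjusted P = 0.371) and 0.05 in hda19. The annotated span of KYP overlaps that of the antisense gene AT5G13970 by 60 bases, and whether strand was used in counting is not given in the sources used here.

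**Figure D1:**
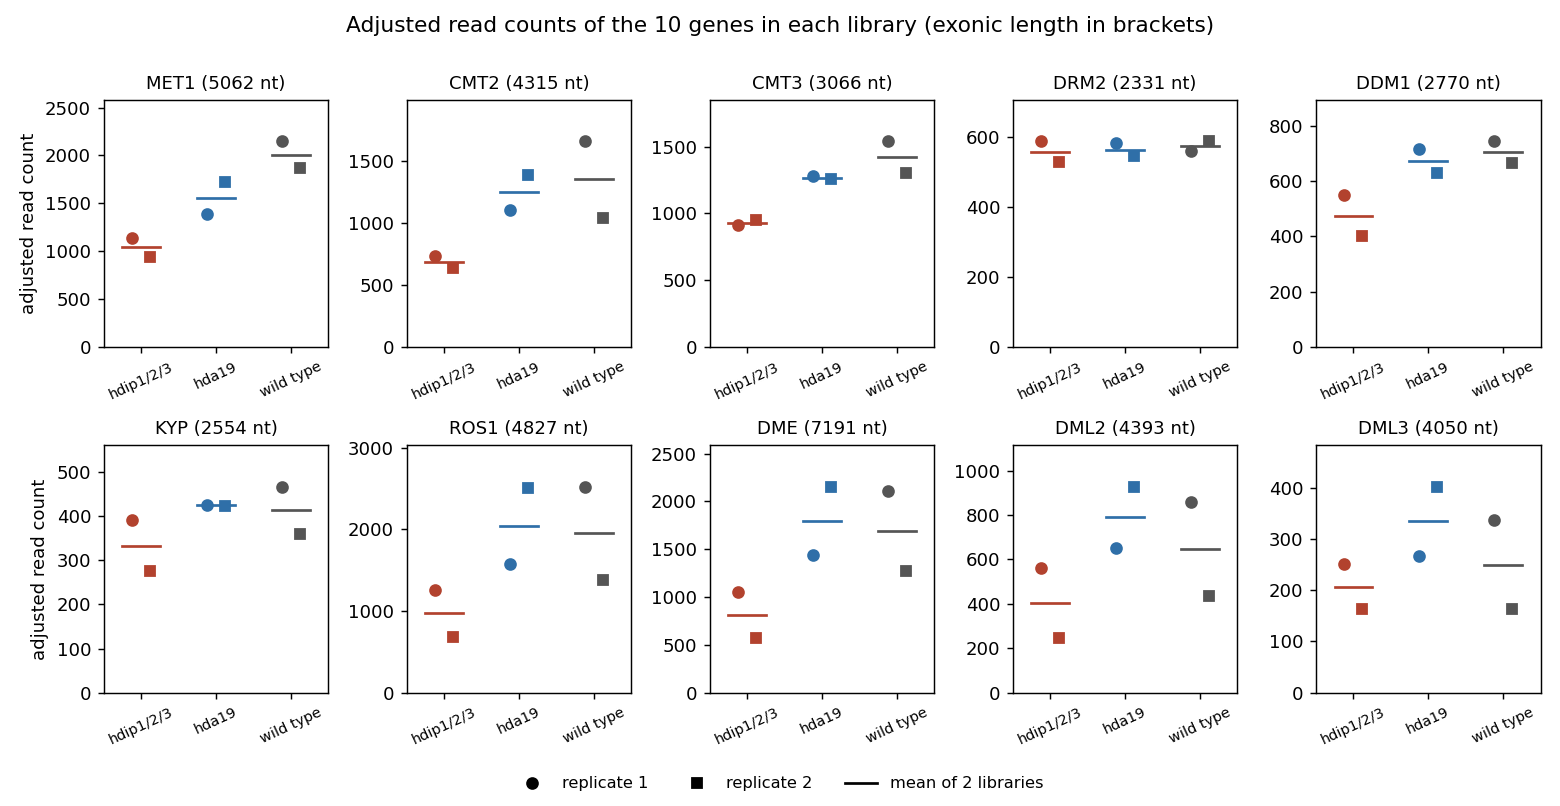
Adjusted read counts (vertical axes from 0) of the 10 genes in each library of hdip1/2/3, hda19 and the wild type, with circles for replicate 1, squares for replicate 2 and a bar for the mean of 2 libraries. The hdip1/2/3 libraries of MET1 (1141 and 945) and CMT3 (910 and 950) lie below all other libraries, those of DRM2 overlap both other genotypes, and the 4 demethylase genes have replicates far apart within each genotype.

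The 4 demethylase transcripts had negative log2 fold changes in hdip1/2/3 as well, none past the adjusted test, and their replicates were far apart. ROS1 (AT2G36490, chromosome 2, 15307907 to 15314807, 4827 nt), the main demethylase of vegetative tissue, had adjusted counts of 1256 and 685 in hdip1/2/3, 1570 and 2505 in hda19, and 2523 and 1377 in the wild type. Both hdip1/2/3 libraries were below every other library, and the hda19 and wild-type libraries overlapped. The log2 fold change of ROS1 was -1.01 in hdip1/2/3 (SE 0.38, limma-trend adjusted P = 0.121) and 0.09 in hda19 (SE 0.38, 95% interval -0.79 to 0.96). ROS1 is known to be expressed less where its promoter loses methylation, and methylation was not measured here.

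DME (AT5G04560, chromosome 5, 1309099 to 1318520), best known for demethylation in the central cell of the female gametophyte and the longest of the genes at 7191 nt, had adjusted counts of 1052 and 576 in hdip1/2/3, 1442 and 2155 in hda19, and 2107 and 1269 in the wild type. The order of the libraries was close to that of ROS1. Its log2 fold change was -1.07 in hdip1/2/3 (SE 0.34, limma-trend adjusted P = 0.0893) and 0.11 in hda19 (SE 0.34).

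DML2 (AT3G10010, chromosome 3, 3081735 to 3088550, 4393 nt) had adjusted counts of 562 and 247 in hdip1/2/3, 649 and 928 in hda19, and 860 and 434 in the wild type. DML3 (AT4G34060, chromosome 4, 16313366 to 16319426, 4050 nt) had adjusted counts of 252 and 163 in hdip1/2/3, 268 and 403 in hda19, and 338 and 163 in the wild type. For both of these ROS1 relatives the hdip1/2/3 libraries overlapped the wild-type libraries, and within hdip1/2/3 and the wild type replicate 1 was the higher library. The log2 fold changes in hdip1/2/3 were -0.71 for DML2 (SE 0.44) and -0.21 for DML3 (SE 0.39), and those in hda19 were 0.34 and 0.48, none past the test.

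No demethylase gene passed the adjusted test in either mutant. By the rule of the study, a log2 fold change beyond 1 with an unadjusted P value below 0.05, ROS1 and DME were lower in hdip1/2/3, 2 of the 10 genes against 4.07% of all tested genes. Both are absent from that set once the length trend is removed, where their log2 fold changes were -0.29 and -0.06. Without wild-type replicate 1 their log2 fold changes were -0.57 and -0.71.

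Across the 10 genes the log2 fold change in hdip1/2/3 was below 0 for 10 (49.6% of all tested genes), the libraries lay wholly below those of the wild type for 6 (31.3%), and the unadjusted limma-trend P value was below 0.05 on the lower side for 6 (15.5%). The median log2 fold change was -0.66, against 0.00 over all tested genes. With the length trend removed the median was -0.15, 8 of the 10 values were below 0 (51% of all tested genes), and 0 of the 10 were called lower, whereas 4.15% of all tested genes were. The unadjusted limma-trend P value was then below 0.05 for CMT2 alone, at -0.32, against 6649 of all 23685 tested genes in either direction.

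The log2 fold changes in hdip1/2/3 were ordered with exonic length (Spearman's rho -0.87 over the 10 genes, which share the same 6 libraries), between -0.04 for DRM2, the shortest, and -1.07 for DME, the longest. In hda19 the same rho was 0.13. Among all tested genes, the median log2 fold change in hdip1/2/3 was -0.41 in the quintile with the longest exons and 0.32 in the quintile with the shortest, and 8.64% and 0.38% of these genes were called lower. Replicates of 1 genotype differed with length too. The longest quintile had a median log2 difference of replicate 1 minus replicate 2 of 0.27 in hdip1/2/3, -0.14 in hda19 and 0.29 in the wild type, and replicate 1 was the higher library for 9 of the 10 genes in hdip1/2/3, 4 in hda19 and 9 in the wild type. For DME, the replicate difference of 0.87 in hdip1/2/3 and 0.73 in the wild type was 0.22 and 0.01 once the length trend was removed. Other genes kept more of it or turned in sign. For DML2 the differences of 1.18 and 0.99 became 0.75 and 0.52. For MET1 those of 0.27 and 0.21 became -0.22 and -0.34.

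**Figure D2:**
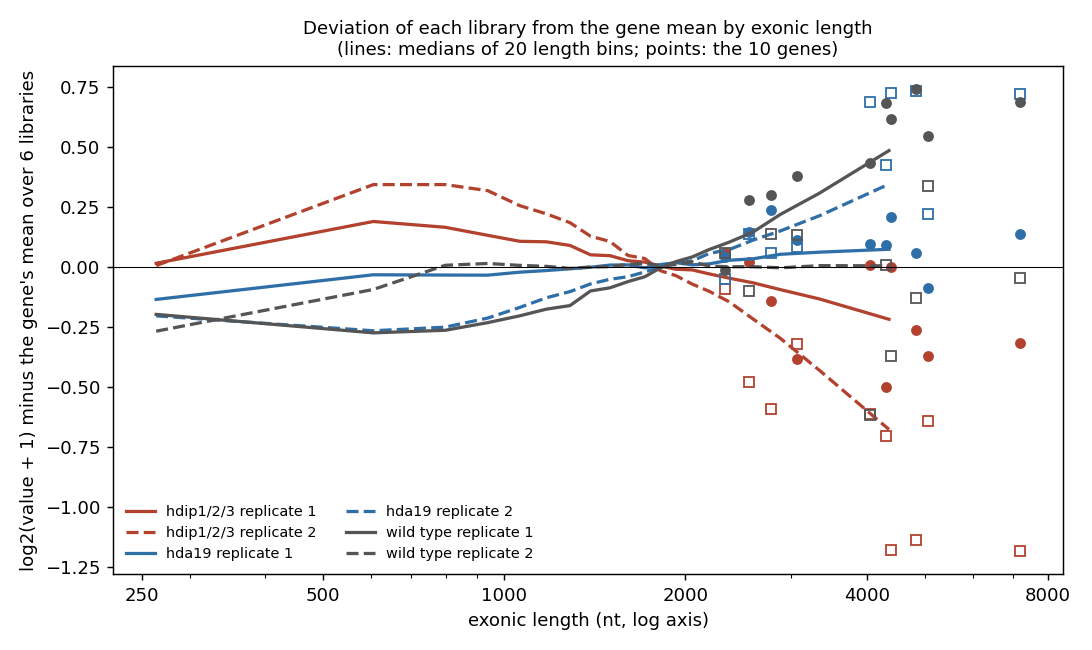
Deviation of each library from the mean of a gene over the 6 libraries, on the log2(value + 1) scale, against exonic length (nt, log axis). Lines are medians of 20 length bins, solid for replicate 1 and dashed for replicate 2, and points are the 10 genes, filled for replicate 1 and open for replicate 2. At the long end both hdip1/2/3 lines lie below 0 and wild-type replicate 1 and hda19 replicate 2 lie above it. The points of the longer genes do not all lie on the lines of their libraries. With the length trend removed, the wild-type replicates still differed by 0.52 for DML2 and 0.62 for DML3.

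**Figure D3:**
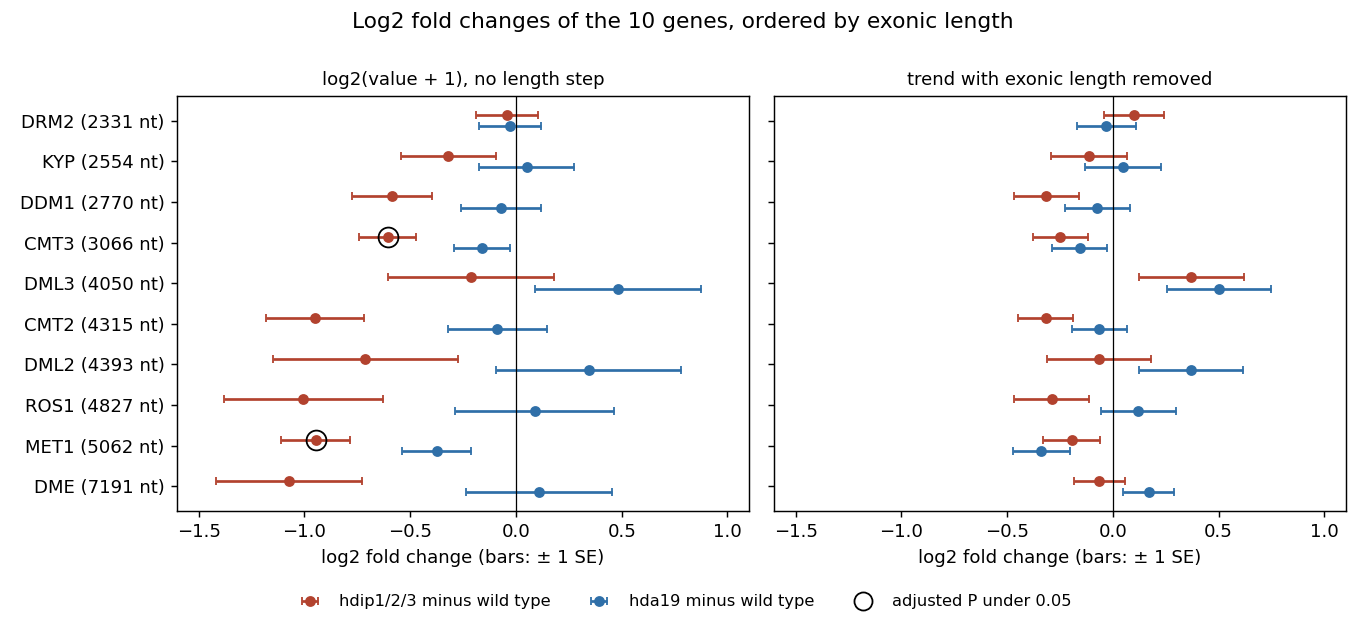
Log2 fold changes against the wild type (horizontal axes, bars ± 1 SE) of the 10 genes ordered by exonic length, without a length step on the left and with the length trend removed on the right, in hdip1/2/3 and hda19. Rings mark an adjusted P value below 0.05. On the left the hdip1/2/3 values of MET1 (-0.95) and CMT3 (-0.61) are ringed, and on the right none is.

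In hda19 none of the 10 genes changed, while 2.84% of all tested genes were called in either direction, 0.688% of them lower and 2.15% higher. None of the 10 had an unadjusted limma-trend P value below 0.05 (17.6% of all tested genes), and limma-voom on recovered reads called none of them. The log2 fold changes lay between -0.38 for MET1 and 0.48 for DML3, with 5 below 0 (49.8%) and a median of 0.01. The libraries of hda19 lay wholly below those of the wild type for 2 genes, MET1 and CMT3 (24.1%). The 95% intervals were wide for the demethylase genes, as for DML3 (-0.43 to 1.39) and DML2 (-0.67 to 1.36), which do not exclude differences of up to these sizes.

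A change past the threshold in hdip1/2/3 and not in hda19 does not show that the mutants differ, and the mutants share the wild-type libraries. The direct comparison of hdip1/2/3 with hda19 called none of the 10 genes and none of all 23685 (0%) by limma-trend, although 5187 genes had an unadjusted P value below 0.05. Limma-voom on the recovered reads called 0 as well. All 10 log2 fold changes were below 0 (50.2% of all tested genes), between -0.01 for DRM2 and -1.18 for DME. The libraries did not overlap for 9 of the 10 (29.8%), DRM2 being the exception, and 7 had an unadjusted P value below 0.05 on the lower side (11.8%). By the fold and unadjusted P rule, ROS1, DME and DML2 were lower, 3 of the 10 against 2.49% of all tested genes. The smallest adjusted P value among the 10 was 0.188, for MET1, CMT2, CMT3 and DME, with log2 fold changes of -0.57, -0.86, -0.45 and -1.18. Once the length trend was removed the value for MET1 was 0.15, 8 of the 10 values were below 0 (49.5% of all tested genes), none met the fold rule, and the median was -0.20 in place of -0.63.

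Levels of different genes were compared as adjusted counts per kilobase of exon. In the wild type CMT3 had the highest mean at 464 ± 55.7 per kilobase, followed by ROS1 (404 ± 168), MET1 (397 ± 40.1), CMT2 (313 ± 102), DDM1 (255 ± 20.1), DRM2 (246 ± 8.89), DME (235 ± 82.4), KYP (162 ± 30.1), DML2 (147 ± 68.6) and DML3 (61.8 ± 30.6; SD, n = 2 libraries each). Of the 9 neighbouring pairs in this order 8 overlapped, so that only DML3 stood apart, below its neighbour DML2. In hda19 ROS1 (422 ± 137) and CMT3 (414 ± 5.94) came first and DML3 (82.8 ± 23.7) last, and 6 of 9 neighbouring pairs overlapped. In hdip1/2/3 CMT3 stayed first at 303 ± 9.19, and DRM2 came next at 239 ± 17.4 per kilobase, ahead of MET1 (206 ± 27.5), ROS1 (201 ± 83.6), DDM1 (171 ± 37.7) and CMT2 (158 ± 15.9). There the libraries of CMT3, DRM2 and MET1 did not overlap each other, and the remaining 7 neighbouring pairs did.

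Ratios within a library described how the members moved against each other. The ratio of MET1 to DRM2 per kilobase was 0.896 and 0.823 in hdip1/2/3, 1.1 and 1.45 in hda19, and 1.77 and 1.46 in the wild type. DRM2 was thus the higher of these 2 genes in both hdip1/2/3 libraries and the lower in the other 4. The ratio of CMT3 to DRM2 was 1.18 and 1.37 in hdip1/2/3, 1.68 and 1.75 in hda19, and 2.1 and 1.68 in the wild type. In contrast, the ratio of ROS1 to MET1 was 1.15 and 0.761 in hdip1/2/3, 1.19 and 1.53 in hda19, and 1.23 and 0.774 in the wild type, with hdip1/2/3 and the wild type overlapping. The ratio of ROS1 to DME stayed between 1.62 and 1.78 in all 6 libraries. The genes of these ratios differ in exonic length, and with the length trend removed the log2 fold changes of MET1 and DRM2 in hdip1/2/3 were -0.19 and 0.10 against the wild type, and 0.15 and 0.13 against hda19.

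The other genes of the pathway were examined as 4 lists of 46 genes, of which 45 passed the filter. In hdip1/2/3, 7 were called lower and 0 higher, whereas 2.82% of all tested genes were called lower and 4.35% higher. In the quintile of tested genes with the longest exons, 8.64% were called lower. Of these 7 pathway genes, 5 were called lower with the length trend removed, whereas 4.15% of all tested genes were. Among 9 genes of CG maintenance and H3K9 methylation, VIM1, a partner of MET1 that binds hemimethylated DNA, was the 1 gene called lower. Its adjusted counts were 796 and 699 in hdip1/2/3, 793 and 772 in hda19, and 1270 and 1188 in the wild type. Both mutants were well below the wild type and overlapped each other. The log2 fold change of VIM1 was -0.72 in hdip1/2/3 (SE 0.13, limma-trend adjusted P = 0.0289) and -0.65 in hda19 (SE 0.13, adjusted P = 0.051). With the length trend removed the values were -0.53 and -0.66 (adjusted P = 0.0179 and 0.00797), and over all alternatives the adjusted P value ranged between 0.0179 and 0.202 in hdip1/2/3 and between 0.00797 and 0.317 in hda19.

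Of 22 RdDM genes, 4 were called lower in hdip1/2/3 and 0 higher, with a list median of -0.65 (-0.15 with the length trend removed). These were CLSY1, a chromatin remodeller that recruits RNA polymerase IV (log2 fold change -1.39, limma-trend adjusted P = 0.0369), AGO6, an Argonaute that binds the siRNAs of the pathway (-1.27, adjusted P = 0.0393), KTF1, an adaptor for AGO proteins (-1.03, adjusted P = 0.0401), and NRPD2, the second-largest subunit shared by polymerases IV and V (-0.88, adjusted P = 0.0442). AGO6 had adjusted counts of 97.5 and 70.4 in hdip1/2/3, 159 and 167 in hda19, and 230 and 176 in the wild type, and the genotypes did not overlap. CLSY1 had 195 and 116 in hdip1/2/3, 265 and 313 in hda19, and 454 and 344 in the wild type, in the same order. With the length trend removed AGO6 (-0.90) and CLSY1 (-0.79), at 3123 and 4132 nt, were still called. KTF1 (-0.31) and NRPD2 (-0.28), at 4865 and 4146 nt, were not. DRM3, a catalytically inactive partner of DRM2, had a log2 fold change of -0.58 in hdip1/2/3 (SE 0.21, adjusted P = 0.115), and the other methyltransferase genes DRM1, CMT1, MET2a, MET2b and MET3 had at most 22.6 adjusted counts in any library.

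Among 9 partners of active demethylation, 2 were called lower in hdip1/2/3. ZDP, a phosphatase that acts after ROS1, had adjusted counts of 539 and 469 in hdip1/2/3, 784 and 726 in hda19, and 893 and 853 in the wild type. Its log2 fold change in hdip1/2/3 was -0.80 (SE 0.14, limma-trend adjusted P = 0.0263). LIG1, the ligase that seals the repaired strand and also joins replicated DNA, had a log2 fold change of -0.77 in hdip1/2/3 (SE 0.18, adjusted P = 0.0459). Both were still called with the length trend removed, at -0.64 and -0.51. In hda19, 0 of the 45 genes were called by limma-trend, 2 had an unadjusted P value below 0.05 on the lower side and 3 on the higher side (17.6% of all tested genes in either direction), and limma-voom called 1 lower. With the length trend removed 1 was called lower (VIM1) and 1 higher (AGO9), against 1951 of all 23685 tested genes in either direction. AGO9, an Argonaute known from reproductive tissue and named here after its values were seen, had 123 and 51.8 adjusted counts in hda19, against 13.1 and 14.2 in the wild type, a log2 fold change of 2.47 (SE 0.55, limma-trend adjusted P = 0.0613). The value was 2.47 with the length trend removed (adjusted P = 0.0194), and the adjusted P value ranged between 0.0194 and 0.36 over all alternatives, below 0.05 in 3 of 15. In hdip1/2/3 AGO9 had 44.2 and 20.8 adjusted counts, both above the wild-type libraries, and was not called (limma-trend adjusted P = 0.215). With the length trend removed it was not called in hdip1/2/3 either (adjusted P = 0.103). The direct comparison of hdip1/2/3 with hda19 did not call AGO9 (limma-trend adjusted P = 0.21). The summed adjusted counts of the floral markers AP1, AG, SEP3, PI and AP3 were 263 and 125 in hda19, 189 and 166 in hdip1/2/3, and 134 and 150 in the wild type. None of the 5 was called in either mutant. Among them PI, a petal and stamen identity gene, had 60.5 and 19.9 in hda19, 47.4 and 16.3 in hdip1/2/3, and 13.1 and 15.2 in the wild type. In contrast, AP3 had 16.4 and 8.73 in hda19, 8.52 and 0.12 in hdip1/2/3, and 13.1 and 24.3 in the wild type. As with AGO9, hda19 replicate 1 was the higher library of both, and the part of floral tissue in the AGO9 value was not tested. None of the 7 genes lower in hdip1/2/3 passed the adjusted test in the fits that left out 1 library, where no gene did.

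Of 11 transcripts known to be set by DNA methylation, 9 passed the filter. In hdip1/2/3 and hda19, 0 were called lower (2.82% and 0.688% of all tested genes). In each mutant 1 was called higher (4.35% and 2.15% of all tested genes). This was QQS, a gene of starch metabolism whose silencing depends on methylation, with adjusted counts of 1385 and 1319 in hdip1/2/3, 796 and 1281 in hda19, and 405 and 374 in the wild type. Both mutants lay above the wild type in every library. The log2 fold change of QQS was 1.79 in hdip1/2/3 (SE 0.22, limma-trend adjusted P = 0.00824) and 1.37 in hda19 (SE 0.22, adjusted P = 0.0229). QQS, with 687 nt of exons, was still called with the length trend removed, at 1.42 and 1.37 (limma-trend adjusted P = 0.00575 and 0.00753). It was not called when any 1 library was left out, with log2 fold changes between 1.74 and 1.85 in hdip1/2/3 and between 1.03 and 1.72 in hda19. FWA, which is silenced by CG methylation, had at most 1.07 adjusted counts in any library, and SDC, a target of CMT3 and DRM2, had at most 4.53. The list median was 0.44 in hdip1/2/3 and 0.80 in hda19, and 1 of the 9 values was below 0 in each mutant. Some of these transcripts were near 0 counts, as SDC was. BNS had 208 and 270 in hdip1/2/3, 224 and 147 in hda19, and 143 and 118 in the wild type. It was not called in either mutant (limma-trend adjusted P = 0.0941 and 0.454).

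Since MET1, DDM1 and LIG1 are most active in dividing cells, 12 DNA replication genes were set beside them. In hdip1/2/3 none of the 12 passed the adjusted limma-trend test (2.82% of all tested genes were called lower), 8 had an unadjusted P value below 0.05 on the lower side (15.5%), and the median log2 fold change was -0.58 (-0.27 with the length trend removed). Their summed adjusted counts were 14013 and 12678 in hdip1/2/3, 14990 and 15673 in hda19, and 16513 and 15525 in the wild type. MCM2, a subunit of the replicative helicase, had a log2 fold change of -0.78 (SE 0.21, limma-trend adjusted P = 0.062). PCNA1, PCNA2 and TSO2, with 1130, 1183 and 1692 nt of exons, had -0.07, -0.16 and 0.12. With the length trend removed the values of MCM2, PCNA1, PCNA2 and TSO2 were -0.39, -0.32, -0.39 and 0.08. In these bulk samples fewer dividing cells and less RNA per cell cannot be told apart, and the part of either in the values of the 10 genes was not tested.

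**Figure D4:**
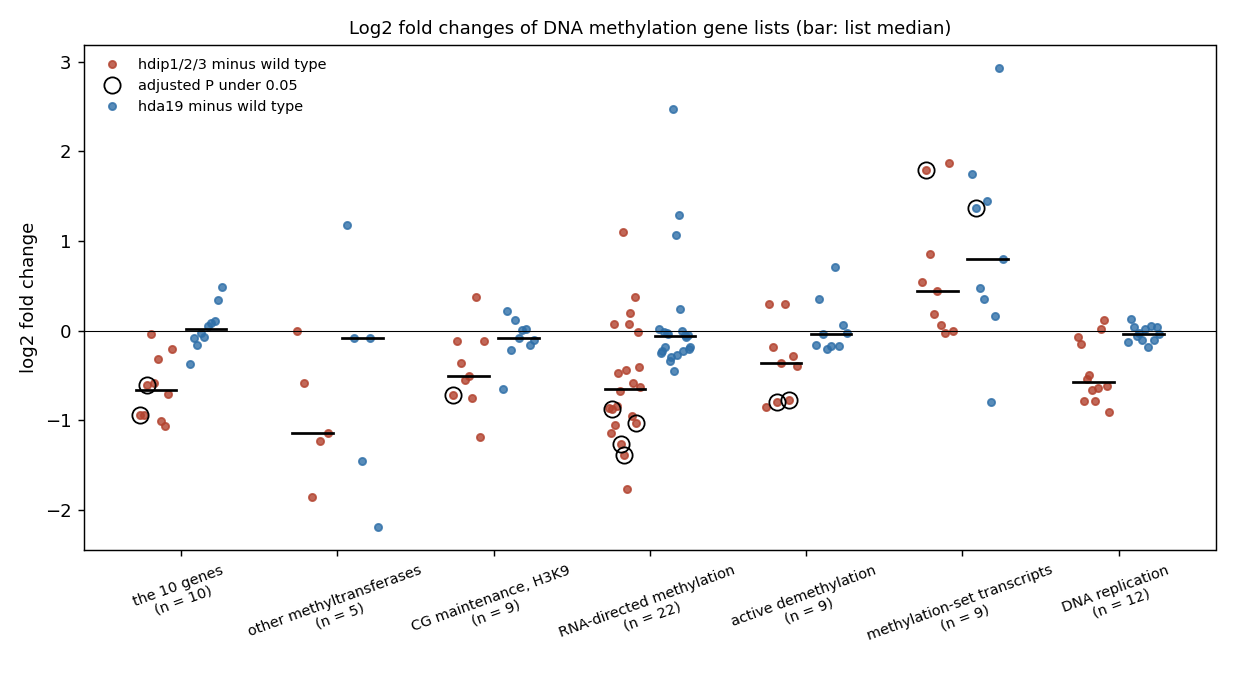
Log2 fold changes against the wild type (vertical axis) of the 10 genes and of 6 lists of related genes, in hdip1/2/3 on the left and hda19 on the right of each position, with a bar at the list median and rings for an adjusted P value below 0.05. The medians in hdip1/2/3 are -0.66 for the 10 genes, -0.65 for RdDM and -0.58 for DNA replication, and QQS is the ringed gene above 0 in both mutants.

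Of the 10 genes, MET1 had the mean log2 fold change over both mutants that was largest in absolute value (0.66). The 3 tested genes whose pattern over the 6 libraries was nearest to it, by the root mean square difference of log2 values centred on the wild-type mean, were AT1G07200 (0.040), AT4G03100 (0.062) and the DNA helicase gene RECQ4B (0.065). AT1G07200 had adjusted counts of 1137 and 1018 in hdip1/2/3, 1466 and 1763 in hda19, and 2280 and 1889 in the wild type. With 6 libraries and 23685 genes such nearness is a description only.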

How the data were processed

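RNA-seq libraries of 20-day-old seedlings were assigned to 3 genotypes by their titles. The paper's methods describe paired NovaSeq reads and the labels single-end DNBSEQ reads. Mapping by the authors was to TAIR10 (HISAT2), and unique alignments were assigned to genes with featureCounts. The deposited signal per gene is a read count scaled by the authors to a common effective library size, in the form of a quantile adjustment, and its totals still differ between libraries (43049775 to 52126534). With that adjustment undone, 195288 of 195288 values lay within 0.01 of an integer. Of recovered values of 1 to 10 reads, 59.9% to 62.8% were even, and the cause was not tested.

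The values were tested by limma-trend (limma 3.58.1, R 4.3.3) on log2(value + 1), with 6 libraries in 1 fit, genotype as the only term and Benjamini-Hochberg adjustment over 23685 genes. The length alternative subtracted from each library a lowess trend (span 0.3) on log2 exonic length, which also removes any change of long genes as a class. With 2 libraries per genotype, an exact permutation test of 1 gene cannot give a P value below 0.333, and P values therefore depend on the spread estimated across genes. The replicates are biological per the paper's methods, and the labels do not say how they were taken.

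All 32548 identifiers were found in RefSeq for TAIR10.1, which gave symbols (CHR1 for DDM1, SUVH4 for KYP, DML1 for ROS1), positions and sequences. The 10 genes and all gene lists were chosen with earlier results of these data known. All 10 genes are named. Of each list the genes with an adjusted P value below 0.05 in either mutant are named, at most 4 with the smallest, with the 3 nearest in pattern to the member of the largest mean change, and further genes only as stated values. Alternatives were another scaling, pseudocounts of 0.1 and 10, no filter and a filter at a mean of 10, fits of 2 genotypes, a replicate block, omission of each library, the length step, and limma-voom on recovered reads. Figures used matplotlib 3.10.9 under Python 3.11.15.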

Additional observations from a re-analysis of the deposited data

How the results depend on the processing

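The log2 fold changes of MET1, CMT2, CMT3, DDM1, KYP, ROS1, DME and DML2 in hdip1/2/3 against the wild type were below 0 under all 15 alternatives. The number of the 10 genes called lower there was 0 with no filter, with only the 2 genotypes in the fit and with the length trend removed, 0 without any 1 library, and 2 or 3 otherwise. By the fold and unadjusted P rule it was 1 with a pseudocount of 10, 0 with no filter, with 2 genotypes and with the length trend removed, and 0 to 2 without 1 library. In hdip1/2/3 against hda19 that rule gave 0 with no filter, with 2 genotypes and with the length trend removed, and 0 to 2 without 1 library, in place of 3. The 7 pathway genes lower in hdip1/2/3 became 4 with a pseudocount of 0.1, 0 with no filter, 14 with a filter at 10, 0 with 2 genotypes and 0 without any 1 library, and the 0 in hda19 became 1 with a filter at 10, with the length trend removed and with limma-voom. AGO9 passed the test as higher in hda19 with a filter at 10 (adjusted P = 0.0359), with a replicate block (adjusted P = 0.0394) and with the length trend removed (adjusted P = 0.0194). Over all genes, hdip1/2/3 against the wild type gave 1699 calls, against 67 with no filter, 2884 with a filter at 10, 0 with 2 genotypes and 2661 with the length trend removed. In hda19 673 became 91, 968, 0 and 1951 under the same settings, and the direct comparison gave 40 calls with no filter in place of 0. Fewer libraries leave fewer degrees of freedom in the fits of 2 genotypes and without 1 library; for the other settings the cause was not tested.

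With the length trend removed, the sign turned for DRM2 (0.10) and DML3 (0.37) in hdip1/2/3 against the wild type, and for MET1 (0.15) and DRM2 (0.13) in hdip1/2/3 against hda19. Without 1 library, DRM2 ranged between -0.115 and 0.0337 and DML3 between -0.74 and 0.31 in hdip1/2/3, and DRM2 between -0.0885 and 0.0602 in hdip1/2/3 against hda19. In hda19 such ranges were -0.42 to 0.25 for CMT2, -0.0738 to 0.0206 for DRM2, -0.163 to 0.0200 for DDM1, -0.14 to 0.24 for KYP, -0.35 to 0.53 for ROS1, -0.26 to 0.47 for DME, -0.15 to 0.84 for DML2 and -0.0409 to 1.01 for DML3.

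Replicate numbers are shared by the genotypes, but deviations of same-numbered libraries correlated at only -0.07, 0.13 and -0.08 across genes, so the numbers were not taken to pair the libraries. With a replicate block, 3 of the 10 genes were called lower in hdip1/2/3 (CMT2 at an adjusted P value of 0.0433 joined MET1 and CMT3), 9 pathway genes were called lower, and 2068 genes in all. The block changed no other call of the 10 genes.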
